A study of Mus musculus with 6 samples.

Results

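De novo lipogenesis, the synthesis of fatty acids from acetyl-CoA in the cytosol, was followed through 10 genes in the hindlimb gastrocnemius (GAS) muscles of Kvβ2 KO mice, which lack both copies of *Kcnab2*, and of WT mice. The genes were taken by name from the deposited table of 37979 genes. They were the transcription factors *Srebf1* and *Mlxipl* with the regulator *Thrsp*, the enzymes *Acly*, *Me1*, *Acaca*, *Fasn* and *Elovl6*, and the desaturases *Scd1* and *Scd2*. All 10 were found. KO and WT mice came from crosses of mice with 1 null copy; the mice were male, 20 weeks of age and untreated, and no tissue-specific driver of the deletion is named. There were 3 KO and 3 WT libraries from total RNA of whole muscle, with 1 library per mouse, and both genotypes carried the replicate numbers 1, 7 and 8.

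In this pathway, citrate that leaves the mitochondria is cleaved to acetyl-CoA, which is carboxylated to malonyl-CoA and built up into palmitate with reducing power from NADPH. Palmitate is then lengthened and given a double bond to make the fatty acids stored in triglycerides. The genes are switched on together by insulin through SREBP-1c and by glucose through ChREBP. They are most active in liver and adipose tissue. Skeletal muscle makes little fat, and its malonyl-CoA mainly holds back the entry of fatty acids into mitochondria.

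The values are FPKM, fragments per kilobase scaled to the depth of a library, so levels can be set side by side between genes. The targeted gene *Kcnab2* had 0.233, 0.10 and 0.11 FPKM in the WT libraries 1, 7 and 8, whereas KO replicate 7 had 0.0151 FPKM and the other KO libraries are listed at 0. From the steps of whole fragments in low FPKM values, the KO libraries held about 14910000 to 19330000 fragments and the WT libraries 20320000 to 21150000, so that 1 fragment on a transcript of 1 kilobase was worth 0.0473 to 0.0671 FPKM. Differences were tested with limma on log2(FPKM + 0.1) for the 12334 genes whose mean reached 0.5 FPKM, and p-values were adjusted after Benjamini and Hochberg. Fold changes on this scale understate the change of low genes, and 3 against 3 libraries cannot give an exact permutation p under 0.1.

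Across all tested genes, the log2 fold change followed the GC content of the gene, with a Spearman rho of 0.70 over 11985 genes. The GC content of the 10 genes ran from 46.1% in *Elovl6* to 59.4% in *Srebf1*, beside a median of 50.1% over the tested genes. Each fold change of the 9 tested genes is therefore given together with its value after correction of the libraries for GC content. KO replicate 7 also stood apart. It was the highest library for 8 of the 10 genes, for 12 of 12 adipocyte markers and for 6 of 7 Schwann cell markers. WT replicate 1 was the lowest library for 5 of the 10 genes. The same shares over all tested genes were not counted, so these counts cannot be called particular to these genes or cells.

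None of the 9 tested genes passed the limma test at an adjusted p under 0.05, beside 0.324% of all tested genes (0.251% called higher and 0.073% called lower). With array weights, which called 1863 higher and 1284 lower among all tested genes, 6 of the 9 passed. *Elovl6* was under the filter. At an unadjusted p under 0.05, *Mlxipl*, *Acaca*, *Fasn* and *Thrsp* were higher in KO muscle and none was lower, while 26.2% of all tested genes passed that level (15.3% higher and 10.9% lower). In *Fasn*, *Acaca*, *Mlxipl*, *Thrsp* and *Srebf1*, 5 of the 10 genes, every KO library lay above every WT library, as in 18.3% of tested genes. No gene had every KO library below every WT library, as in 16.2% of tested genes. Without KO replicate 7 the same count was 5 above, beside 22.7% of tested genes, and 2 below, *Scd2* and *Elovl6*, beside 18.7%. The median log2 fold change of the 9 genes was 0.74, or 0.28 after GC correction, against 0.01 and -0.0036 for all tested genes. The 10 myofibre markers, all tested, had a median of 0.73, or 0.39 after GC correction, much like that of the lipogenesis genes.

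**Figure D1:**
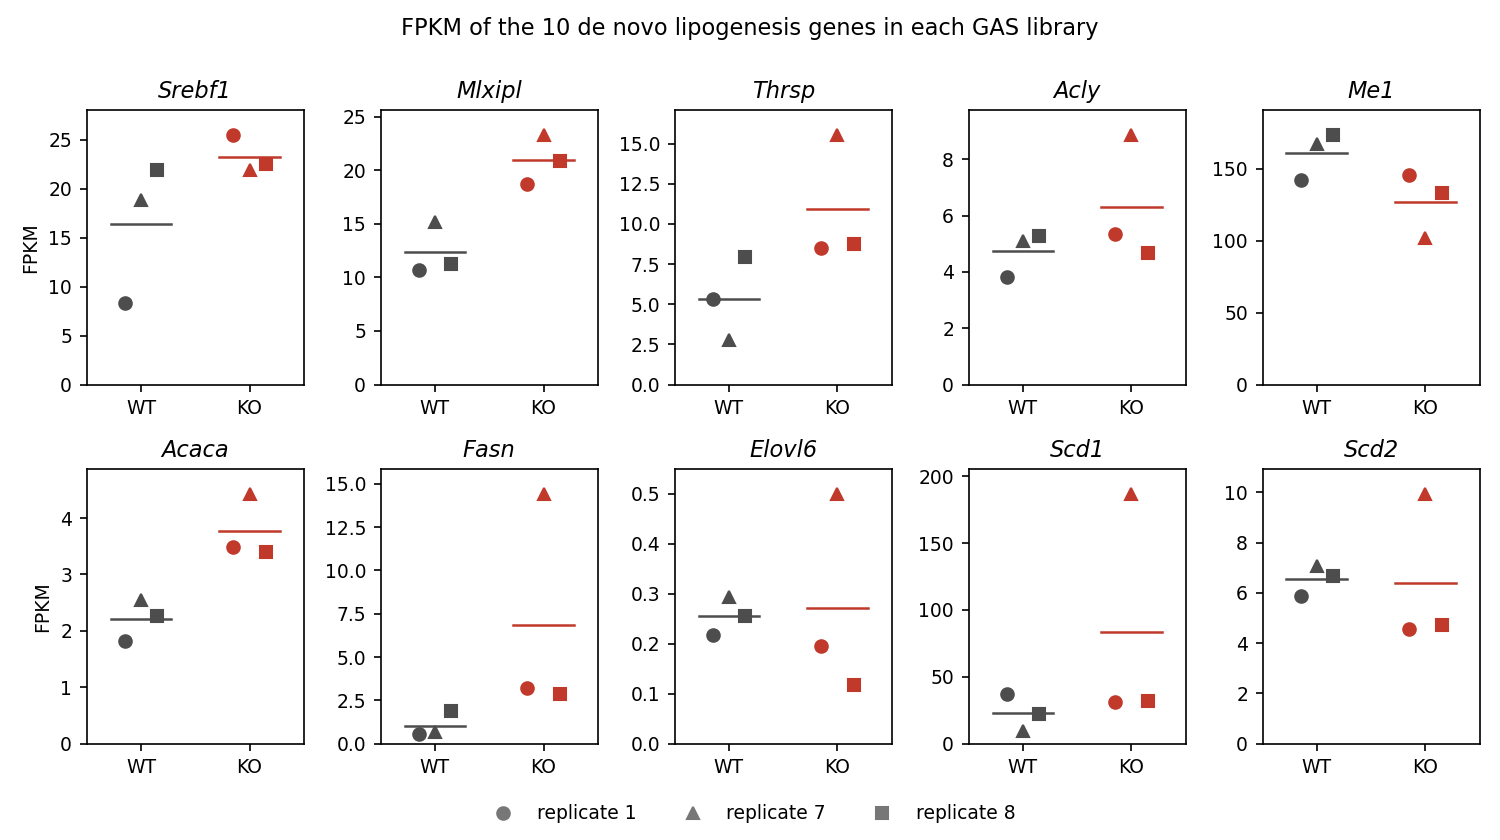
FPKM (linear axes from 0) of the 10 genes in each of the 3 WT and 3 KO libraries, with marker shape for the replicate number and a line at the group mean. KO replicate 7 (red triangle) is the highest point in each panel but *Srebf1*, where KO replicate 1 is, and *Me1*, where WT replicate 8 is and KO replicate 7 is the lowest.

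In WT muscle the 10 genes spanned a wide range of levels. The mean was 161 ± 16.6 FPKM (SD, n = 3) for *Me1*, 22.9 ± 13.9 for *Scd1*, 16.3 ± 7.10 for *Srebf1*, 12.4 ± 2.44 for *Mlxipl*, 6.53 ± 0.602 for *Scd2*, 5.34 ± 2.59 for *Thrsp*, 4.73 ± 0.792 for *Acly*, 2.21 ± 0.366 for *Acaca*, 1.03 ± 0.733 for *Fasn* and 0.256 ± 0.0382 for *Elovl6*. The libraries of *Scd1*, *Srebf1* and *Mlxipl* overlapped from one to the next in this order, and so did those of *Scd2*, *Thrsp* and *Acly* and those of *Acaca* and *Fasn*. *Me1* and *Elovl6* lay apart from their neighbours. In KO muscle the ranges of *Me1*, at 127 ± 22.6 FPKM, and *Scd1*, at 83.3 ± 89.3, overlapped.

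The upstream sequences of the genes were read from RefSeq on GRCm38.p6, which held 12 windows of 250 bases for 8 of the 10 genes. *Scd1* and *Scd2* were not among them. The only window of *Acaca*, chr11:84195188-84195437, lies inside the gene, which begins at 84129672, so it does not cover the sequence before the gene. The windows were searched on both strands for the sterol response element TCACNCCAC bound by SREBPs, the E-box CACGTG at the core of ChREBP and USF sites, the CCAAT box bound by NF-Y, the GC box GGGCGG bound by Sp1, and the LXR response element, a direct repeat of AGGTCA with 4 bases between. The windows of *Fasn* and *Mlxipl* are printed because *Fasn* had the largest fold change of the 9 tested genes and *Mlxipl* the smallest p, and because the sterol response element and the E-box were found in *Mlxipl* alone of the 8. Capitals mark the matches, and ATTGG is the CCAAT box on the other strand. The *Fasn* window is chr11:120824548-120824797 (minus strand), and the *Mlxipl* windows are chr5:135089640-135089889 and chr5:135106641-135106890 (plus strand), each ending at the base before a RefSeq start.
Fasn: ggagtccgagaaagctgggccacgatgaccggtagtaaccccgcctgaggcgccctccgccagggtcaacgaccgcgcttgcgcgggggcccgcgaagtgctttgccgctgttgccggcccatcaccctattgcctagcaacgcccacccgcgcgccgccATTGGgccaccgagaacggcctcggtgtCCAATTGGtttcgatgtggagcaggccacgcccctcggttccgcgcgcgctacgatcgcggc
Mlxipl, upstream start: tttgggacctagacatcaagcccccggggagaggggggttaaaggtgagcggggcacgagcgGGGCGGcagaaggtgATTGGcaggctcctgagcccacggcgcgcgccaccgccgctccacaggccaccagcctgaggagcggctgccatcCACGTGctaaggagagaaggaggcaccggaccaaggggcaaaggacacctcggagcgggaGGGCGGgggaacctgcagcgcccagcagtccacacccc
Mlxipl, downstream start: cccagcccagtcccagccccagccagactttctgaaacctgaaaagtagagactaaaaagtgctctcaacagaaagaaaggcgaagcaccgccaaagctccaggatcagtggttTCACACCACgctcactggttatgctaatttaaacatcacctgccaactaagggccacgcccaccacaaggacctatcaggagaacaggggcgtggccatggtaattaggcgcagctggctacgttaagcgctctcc
In *Fasn* there were 3 CCAAT boxes, of which the first lay 90 to 86 bases before the start and the other two overlapped between bases 62 and 55. The upstream *Mlxipl* window held the E-box at 98 to 93 bases before the start, 2 GC boxes and 1 CCAAT box. The downstream *Mlxipl* window, inside the gene, held the sterol response element at 136 to 128 bases before the start. The gene-level FPKM do not separate transcripts from the starts of *Mlxipl*. Of 32851 RefSeq windows of the same length, 1.05% held the sterol response element, 6.02% the E-box, 33.8% a CCAAT box and 32.7% a GC box. A CCAAT box was found in 6 windows of 5 of the 8 genes and a GC box in 5 windows of 4 genes. The exact LXR repeat was found in 0.0152% of all windows and in none of the 12. The counts above are matches of letters and not measured sites. Variants of the motifs were not searched for, so a window without a match can still hold a site.

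*Srebf1* (ENSMUSG00000020538, chromosome 11, 60199089 to 60222581 of GRCm38) encodes SREBP-1, the membrane-bound transcription factor of the fatty acid synthesis genes. WT muscle gave 8.34, 18.8 and 21.9 FPKM in replicates 1, 7 and 8, and KO muscle gave 25.4, 21.9 and 22.5 FPKM in the same order. The groups did not overlap, but WT replicate 8 and KO replicate 7 were almost level, and WT replicate 1 lay far under the rest. The log2 fold change was 0.62 (standard error 0.33, limma adjusted p = 0.271). It was 0.03 after GC correction and 0.19 without WT replicate 1.

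*Mlxipl* (ENSMUSG00000005373, chromosome 5, 135089890 to 135138382) encodes ChREBP, the glucose-responsive factor. Its FPKM were 10.7, 15.2 and 11.2 for WT 1, 7 and 8, set against 18.7, 23.3 and 20.9 for KO 1, 7 and 8. Every KO library lay above every WT library, and the KO libraries lay close together, with KO replicate 7 at 1.18 times the mean of the other KO libraries. Its log2 fold change was 0.76 (standard error 0.16, limma adjusted p = 0.0716). It stayed between 0.67 and 0.92 with any 1 library left out and was 0.28 after GC correction.

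*Thrsp* (ENSMUSG00000035686, chromosome 7, 97412938 to 97417730) encodes Spot 14, a small protein induced by thyroid hormone that promotes fatty acid synthesis. Its FPKM were 5.31, 2.77 and 7.95 for WT 1, 7 and 8, set against 8.51, 15.5 and 8.74 for KO 1, 7 and 8. The groups did not overlap, though WT replicate 8 came near KO replicate 1. This gave a log2 fold change of 1.08 (standard error 0.39, limma adjusted p = 0.148), and 0.90 after GC correction. Without WT replicate 7 it was 0.68.

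*Acly* (ENSMUSG00000020917, chromosome 11, 100476353 to 100528000) encodes ATP citrate lyase, which frees acetyl-CoA from citrate. The WT libraries 1, 7 and 8 had 3.82, 5.11 and 5.27 FPKM, against 5.34, 8.86 and 4.68 FPKM for the KO libraries 1, 7 and 8. The groups overlapped, with KO replicate 8 under 2 of the WT libraries. Its log2 fold change was 0.36 (standard error 0.25, limma adjusted p = 0.387), 0.23 after GC correction, 0.09 without KO replicate 7, 0.22 without WT replicate 1 and 0.54 without KO replicate 8.

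*Me1* (ENSMUSG00000032418, chromosome 9, 86581371 to 86695953) encodes the cytosolic malic enzyme, which supplies NADPH. The WT libraries 1, 7 and 8 had 142, 167 and 173 FPKM, against 146, 102 and 133 FPKM for the KO libraries 1, 7 and 8. It was the highest gene of the 10 in WT muscle and ran against the rest, since KO replicate 7, the highest library for 8 of them, was its lowest. The groups overlapped. This gave a log2 fold change of -0.35 (standard error 0.16, limma adjusted p = 0.204), and -0.20 after GC correction as well as without KO replicate 7.

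*Acaca* (ENSMUSG00000020532, chromosome 11, 84129672 to 84401651) encodes acetyl-CoA carboxylase 1, which makes the malonyl-CoA used for synthesis. WT muscle gave 1.82, 2.55 and 2.26 FPKM in replicates 1, 7 and 8, and KO muscle gave 3.49, 4.42 and 3.39 FPKM in the same order. Every KO library lay above every WT library with a clear gap. The log2 fold change was 0.74 (standard error 0.18, limma adjusted p = 0.0785). It was 0.86 after GC correction and between 0.62 and 0.85 with any 1 library left out, so that *Acaca* was the one gene at unadjusted p under 0.05 whose fold change grew with the GC correction.

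*Fasn* (ENSMUSG00000025153, chromosome 11, 120805846 to 120824547) encodes fatty acid synthase, which builds palmitate. WT muscle gave 0.560, 0.651 and 1.87 FPKM in replicates 1, 7 and 8, and KO muscle gave 3.22, 14.4 and 2.86 FPKM in the same order. The groups did not overlap, and KO replicate 7 was 4.73 times the mean of the other KO libraries. Its log2 fold change was 2.40 (standard error 0.67, limma adjusted p = 0.0962). After GC correction it was 1.86, and without KO replicate 7 it was 1.66. The ratio of *Fasn* to *Acaca* within a library was 0.307, 0.255 and 0.828 in WT replicates 1, 7 and 8 and 0.922, 3.26 and 0.844 in KO replicates 1, 7 and 8. All KO ratios lay above all WT ratios (exact permutation test, two-sided, p = 0.1), with the lowest KO ratio close to the highest WT ratio.

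*Elovl6* (ENSMUSG00000041220, chromosome 3, 129532355 to 129638495) encodes the elongase that lengthens palmitate to stearate. Its FPKM were 0.217, 0.294 and 0.256 for WT 1, 7 and 8, set against 0.196, 0.499 and 0.118 for KO 1, 7 and 8. These levels stood for 1.89 to 9.65 fragments per kilobase of transcript. KO replicates 1 and 8 lay under all WT libraries and KO replicate 7 above them, and an exact two-sided permutation test gave p = 0.9.

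*Scd1* (ENSMUSG00000037071, chromosome 19, 44394455 to 44407879) encodes the main stearoyl-CoA desaturase of liver and fat, which turns stearate into oleate. The WT libraries 1, 7 and 8 had 37.0, 9.16 and 22.5 FPKM, against 31.3, 186 and 32.1 FPKM for the KO libraries 1, 7 and 8. The groups overlapped, since WT replicate 1 lay above KO replicates 1 and 8, and KO replicate 7 was 5.88 times the mean of the other KO libraries. This gave a log2 fold change of 1.53 (standard error 0.76, limma adjusted p = 0.242). It was 1.58 after GC correction, 0.68 without KO replicate 7 and 0.99 without WT replicate 7.

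*Scd2* (ENSMUSG00000025203, chromosome 19, 44293674 to 44306864) encodes the desaturase isoform of brain and other tissues. Its FPKM were 5.88, 7.06 and 6.67 for WT 1, 7 and 8, set against 4.56, 9.92 and 4.73 for KO 1, 7 and 8. KO replicates 1 and 8 lay under all WT libraries and KO replicate 7 above them. The log2 fold change was -0.12 (standard error 0.29, limma adjusted p = 0.818), as it was after GC correction. Its sign turned without KO replicate 1 (0.07) and without KO replicate 8 (0.05). It stayed negative without any of the other 4 libraries, at -0.48 without KO replicate 7 and -0.19 to -0.06 without a WT library. The desaturase genes lie near each other and are alike in sequence, so fragments may have been shared between them in the counting.

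The desaturases were set against each other within a library, which does not depend on the scaling of the library. The ratio of *Scd2* to *Scd1* was 0.159, 0.770 and 0.296 in WT replicates 1, 7 and 8 and 0.146, 0.0532 and 0.147 in KO replicates 1, 7 and 8. All KO ratios lay under all WT ratios, though KO replicates 1 and 8 were close to WT replicate 1. The log2 difference was -1.66 (exact permutation test, two-sided, p = 0.1), -1.69 after GC correction of both genes, -1.18 without KO replicate 7 and -1.05 without WT replicate 7 (exact p = 0.3).

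**Figure D2:**
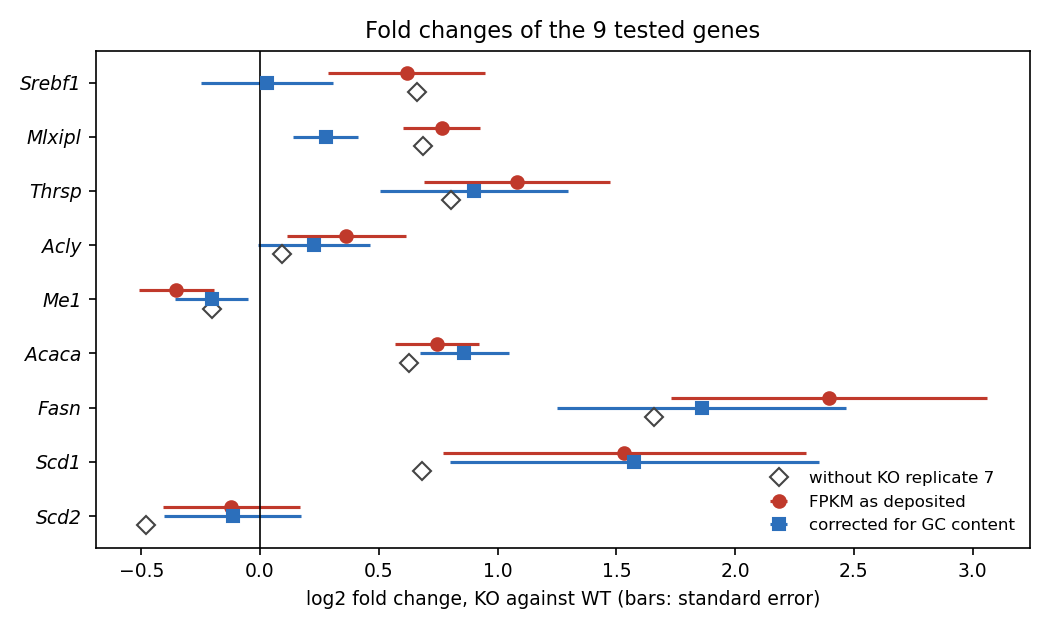
Log2 fold change (KO against WT) of the 9 tested genes from FPKM as deposited (red circles), after GC correction (blue squares) and without KO replicate 7 (open diamonds); bars on circles and squares are standard errors. The correction moves *Srebf1* from 0.62 to 0.03 and *Mlxipl* from 0.76 to 0.28 and leaves *Scd1* near 1.5, while leaving out KO replicate 7 takes *Scd1* to 0.68.

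The genes also differed in how far they ranged over the 6 libraries. The highest library was 25.7 times the lowest for *Fasn*, 20.3 times for *Scd1* and 5.6 times for *Thrsp*, while it was 1.70 times for *Me1*. On the log2(FPKM + 0.1) scale the median range of the tested genes was 0.71, or 1.64-fold, and 98.1% of tested genes ranged less than *Scd1* and 98.2% less than *Fasn*. *Mlxipl*, *Scd2*, *Acly*, *Acaca* and *Srebf1* ranged 2.17- to 3.05-fold, and *Elovl6* 4.24-fold on few fragments.

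Markers of other cells were followed in the same libraries. The 12 adipocyte markers summed to 451, 238 and 241 FPKM for WT 1, 7 and 8 and to 311, 661 and 351 FPKM for KO 1, 7 and 8. The sum was mostly *Fabp4*, a fatty acid carrier that endothelium also makes, and the groups overlapped. Without *Fabp4*, a choice not planned in advance, the sums were 11.3 to 41.9 FPKM in WT and 52.9 to 210.2 FPKM in KO muscle. These sums did not overlap between the groups. Of the defining markers, *Adrb3* was listed at 0 in WT replicate 8 and the other 11 were above 0 in every library. Of the 11 tested markers 0 were called and 7 were higher at an unadjusted p under 0.05, beside 15.3% of all tested genes. Their median log2 fold change was 1.65. In 5 of the 11, every KO library lay above every WT library, as in 18.3% of tested genes. *Adipoq*, the adipocyte hormone, had 11.4, 2.39 and 5.0 FPKM in the WT libraries 1, 7 and 8, against 9.86, 40.4 and 11.1 FPKM in the KO libraries. *Cfd*, the adipocyte protease adipsin, had a log2 fold change of 2.11 (limma adjusted p = 0.107), 1.55 after GC correction and 1.52 without KO replicate 7. *Fabp4* had only 0.26 (limma adjusted p = 0.605), 0.56 after GC correction and 0.02 without KO replicate 7. The part of adipocyte RNA in the differences of the lipogenesis genes was not tested, and in bulk muscle more cells of a type and more RNA per cell cannot be told apart.

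*Scd1* ordered the 6 libraries as *Adipoq* did, *Fasn* as *Retn* did and *Thrsp* as *Plin1* did, in each case 1 of the 12 adipocyte markers, and the other 7 lipogenesis genes matched the order of none. The ratio of *Scd1* to *Adipoq* was 3.26, 3.83 and 4.50 in WT replicates 1, 7 and 8 and 3.17, 4.61 and 2.90 in KO replicates 1, 7 and 8. It ranged 1.59-fold and *Scd1* itself 20.3-fold, and the groups overlapped (exact permutation test, two-sided, p = 0.6). The ratio of *Fasn* to *Adipoq* was 0.0492 in WT replicate 1 and 0.258 to 0.374 in the other 5 libraries (exact p = 0.7). That of *Mlxipl* ranged from 0.575 to 6.35, 11.0-fold, while *Mlxipl* itself ranged 2.17-fold. These ratios to *Adipoq*, and that of *Fasn* to *Acaca*, were chosen after the values were seen. *Adipoq* is the marker that shares the library order of *Scd1*, so their ratio is no separate check, and no cause was tested.

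**Figure D3:**
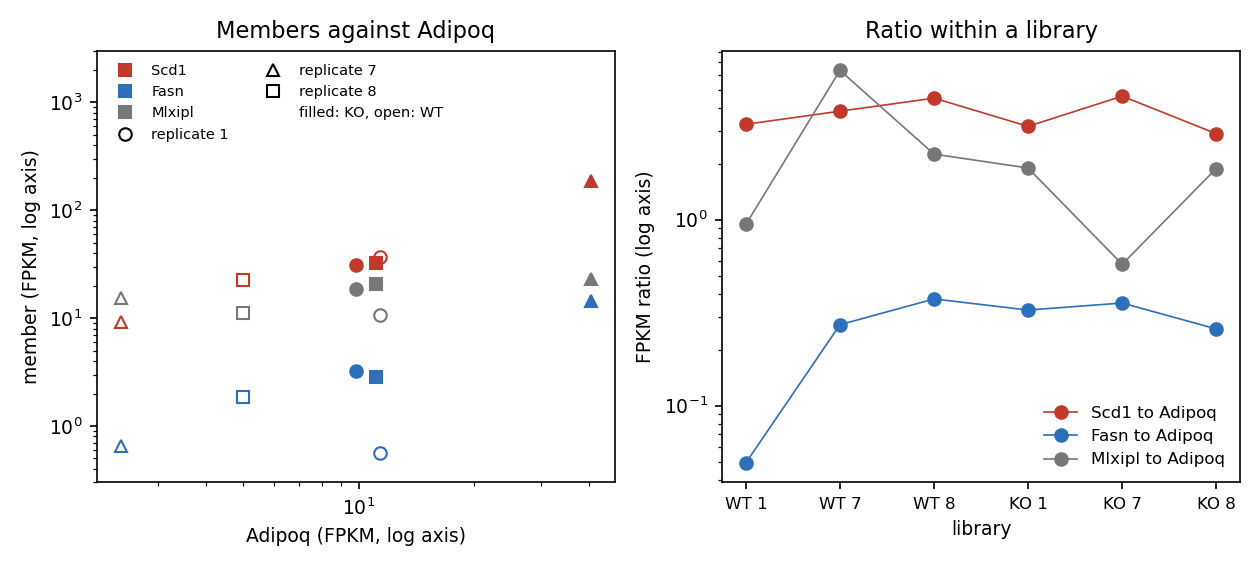
Left, FPKM of *Scd1*, *Fasn* and *Mlxipl* against FPKM of *Adipoq* in each library (both axes log; filled for KO, open for WT, shapes for the replicate number). Right, the ratio of each gene to *Adipoq* within a library (log axis; lines join the libraries for reading only). The *Scd1* ratio stays between 2.90 and 4.61, the *Fasn* ratio drops to 0.0492 in WT replicate 1, and the *Mlxipl* ratio runs from 0.575 to 6.35.

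The 7 Schwann cell markers summed to 52.6, 73.6 and 23.1 FPKM for WT 1, 7 and 8 and to 26.9, 92.1 and 42.4 FPKM for KO 1, 7 and 8, so that the groups overlapped. *Mbp* and *Pmp22*, the most abundant of them and both proteins of myelin, had log2 fold changes of 0.24 and -0.01, and the sign of *Mbp* turned after GC correction. KO replicate 7 and WT replicate 7 held the highest sums, and they were the highest libraries of *Scd2* as well. The likeness went no further, since WT replicate 8 had the lowest sum but the next highest *Scd2*. Of the 7 markers, 0 ordered the libraries as *Scd2* did. The 6 macrophage markers summed to 17.2 to 32.6 FPKM in WT and 22.6 to 49.2 FPKM in KO muscle. The 6 endothelial markers summed to 44.3 to 49.2 and 43.9 to 57.3 FPKM. KO replicate 7 held the highest sum of each of these lists as well. The 10 myofibre markers, which check the tissue, were above 0 in every library. They summed to 31974, 42653 and 46525 FPKM in WT replicates 1, 7 and 8, so that WT replicate 1 lay far under the rest. The KO sums were 47937 to 52521 FPKM, every KO sum above every WT sum. The part of these cells in the values of the lipogenesis genes was not tested.

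**Figure D4:**
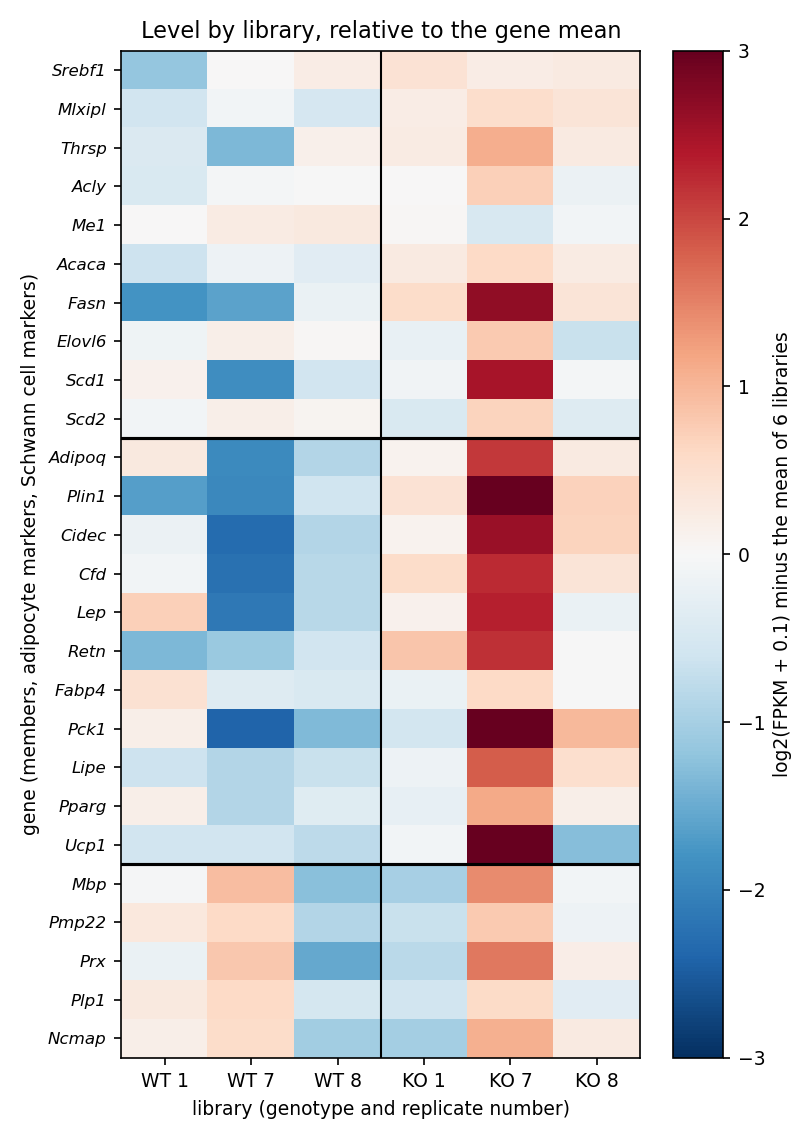
Log2(FPKM + 0.1) of the 10 lipogenesis genes (top), the 11 tested adipocyte markers (middle) and the 5 tested Schwann cell markers (bottom) in the 6 libraries, each minus the mean of the gene; red is higher and blue lower, and the colours end 3 above and 3 below the mean. The column of KO replicate 7 is red for each gene but *Me1*, faintly so for *Srebf1*, and WT replicate 7 is blue for the adipocyte markers and red for the Schwann cell markers.

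The genes most like *Fasn* over the 6 libraries, by Pearson's r of log2(FPKM + 0.1) with each of the other 12333 tested genes, were *Dnajc14* (r = 0.996), *Ckb* (0.994), *Srebf2* (0.993), *Scarf1* (0.992) and *Mrvi1* (0.992). *Srebf2* encodes SREBP-2, the factor of the sterol genes. WT muscle gave 1.28, 1.35 and 1.83 FPKM in replicates 1, 7 and 8, and KO muscle gave 1.91, 3.16 and 1.95 FPKM in the same order. The genes most like *Scd1* were *Tmsb10* (0.992), *Cyb561* (0.991), *Sfxn5* (0.987), *Tmem45b* (0.987) and *Agpat2* (0.982), the last an acyltransferase of triglyceride synthesis. With 6 points, of which KO replicate 7 was the extreme, such values are a description. Without that library they were 0.982 to 0.992 for the genes named for *Fasn* and 0.935 to 0.989 for those named for *Scd1*. The genes were picked as the highest of 12333 on these same libraries, so this is no separate check. Among the lipogenesis genes, r with *Fasn* was 0.90 for *Thrsp*, 0.89 for *Acaca*, 0.87 for *Acly*, 0.81 for *Scd1*, 0.78 for *Mlxipl*, 0.62 for *Srebf1* and 0.37 for *Scd2*, and -0.77 for *Me1*.

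Around these genes, 7 lists of the pathway held 79 tested genes, of which 1 was called, *Scap*. At an unadjusted p under 0.05, 19 were higher and 4 lower, where 15.3% and 10.9% of all tested genes were, and the median log2 fold change was 0.13, or 0.06 after GC correction. *Scap*, which escorts SREBPs from the endoplasmic reticulum to the Golgi for cleavage, had 1.67, 2.18 and 2.02 FPKM in the WT libraries 1, 7 and 8, against 4.4, 4.75 and 3.98 FPKM in the KO libraries. It rose in KO muscle by a log2 fold change of 1.13 (standard error 0.15, limma adjusted p = 0.0435), and the groups lay far apart. The call was lost after GC correction (log2 fold change 0.78, limma adjusted p = 0.149). It was also lost without WT replicate 1 (limma adjusted p = 0.0783), WT replicate 7 (0.147), KO replicate 1 (0.0841), KO replicate 7 (0.204) or KO replicate 8 (0.185), with log2 fold changes of 1.02 to 1.21.

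The counts by list are to be read beside all tested genes, of which 15.3% were higher and 10.9% lower at an unadjusted p under 0.05. Of the 13 tested regulators and partners of the lipogenic factors, 4 were higher and 0 lower at that level, with a median log2 fold change of 0.24. After *Scap*, the smallest p was that of *Nr1h2*, which encodes LXRβ, at 0.86 (limma adjusted p = 0.0750, and 0.20 after GC correction). Of the 12 genes that supply cytosolic acetyl-CoA and NADPH, 2 were higher and 0 lower (median 0.30). These were *Pgls* at 1.25 (limma adjusted p = 0.104) and *Pgd* at 0.46 (limma adjusted p = 0.183), both of the pentose phosphate pathway. After GC correction they had 0.58 and 0.37, and *Pgd* had 0.26 without KO replicate 7. Of the 3 genes of malonyl-CoA in the control of fat oxidation, 2 were higher (median 0.52, and 0.15 after GC correction). *Acacb*, the carboxylase at the mitochondrial surface, was at 15.5 to 22.1 FPKM in WT and 27.1 to 31.0 FPKM in KO muscle, a level above that of *Acaca* in every library, with a log2 fold change of 0.67 (limma adjusted p = 0.0750, and 0.22 after GC correction). *Cpt1b*, the muscle carnitine palmitoyltransferase that malonyl-CoA inhibits, had 0.52 (limma adjusted p = 0.0859, and 0.15 after GC correction).

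Of the 13 other elongation and desaturation genes, 2 were higher and 1 lower at an unadjusted p under 0.05 (median 0.02). For this and the next lists the shares over all tested genes were again 15.3% higher and 10.9% lower. *Fads2*, the delta-6 desaturase, had a log2 fold change of 0.81 (limma adjusted p = 0.139), and *Hacd1*, a dehydratase of the elongation cycle, -0.50 (limma adjusted p = 0.104). After GC correction they had 0.57 and -0.45. Of the 14 genes of fatty acid activation and glycerolipid entry, 4 were higher and 1 lower (median 0.06). *Agpat3*, an acyltransferase, had 0.64 (limma adjusted p = 0.0819), and *Acsl4*, a ligase that favours arachidonate, -0.61 (limma adjusted p = 0.117), and after GC correction they had 0.23 and -0.21. Of the 15 sterol genes, 3 were higher and 1 lower (median 0.08). *Mvk* and *Mvd*, enzymes of the mevalonate pathway, had 1.27 and 1.12 (limma adjusted p = 0.0667 and 0.0750), and 0.73 and 0.54 after GC correction. Of the 9 genes of mitochondrial fatty acid synthesis, 2 were higher and 1 lower (median -0.11, and 0.03 after GC correction). *Acsf3*, which makes malonyl-CoA inside mitochondria, had 0.65 (limma adjusted p = 0.0956, and 0.16 after GC correction), and *Mcat*, which loads it onto the carrier protein, 0.41 (limma adjusted p = 0.149), which turned to -0.20 after GC correction.

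**Figure D5:**
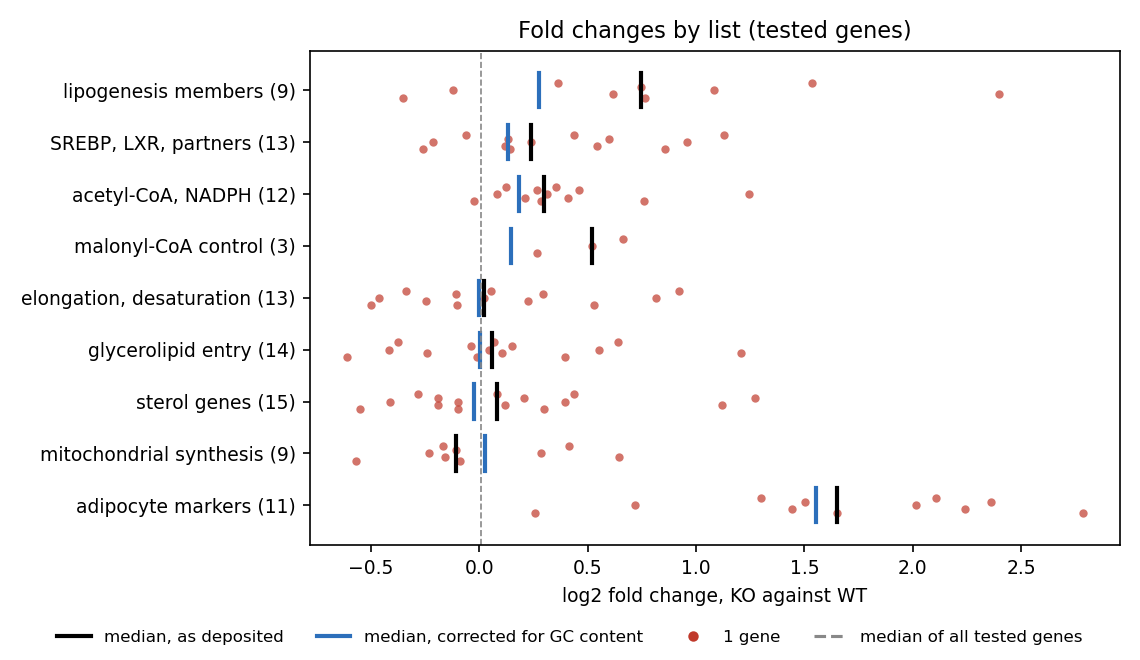
Log2 fold change (KO against WT) of each tested gene by list, with the number of tested genes in parentheses; black bars are medians from FPKM as deposited, blue bars medians after GC correction, and the dashed line the median of all tested genes. The lipogenesis genes have a median of 0.74 and the adipocyte markers of 1.65, and the 7 pathway lists have medians from -0.11 to 0.52.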

How the data were processed

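Total RNA of GAS muscles was made into TruSeq stranded mRNA libraries. The authors mapped reads to GRCm38 with TopHat, quantified genes with Cufflinks and deposited FPKM per gene and library, without counts. Tool versions and annotation release are not given in the sources used here, nor whether counting used strand; *Srebf1*, *Mlxipl*, *Elovl6* and *Me1* share some exonic bases with genes on the other strand.

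Depth was estimated from genes with 1 transcript, with 90.3% to 94.5% of low values within 0.15 of a whole fragment. limma 3.58.1 in R 4.3.3 was run on log2(FPKM + 0.1) with a variance trend, after testing on simulated data; calls had an adjusted p under 0.05. GC content came from GENCODE vM21, and its loess trend (span 0.3) was subtracted per library. Single values were tested by exact permutation.

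The members and lists were chosen with earlier results of these data known. Named were all members, the 2 genes of lowest p per list, the 3 most abundant adipocyte and Schwann cell markers (1 of the latter is not reported here), and the 5 genes most like *Fasn* and *Scd1*. Of 87 list genes 85 were matched. Alternatives covered pseudocount, filter, scaling, variance model, array weights, replicate block, GC content, length, genes at 0 and each library left out. With 3 libraries per group, p-values measure only the spread between these libraries. Each mouse gave 1 library, so mouse and library preparation cannot be told apart in that spread. Python 3.11.15 with matplotlib 3.10.9 was used for the figures.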

Additional observations from a re-analysis of the deposited data

How the results depend on the processing

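No lipogenesis gene was called in 18 of 19 alternatives; with array weights, which also called 1863 higher and 1284 lower among all genes, 6 were (*Scd1*, *Fasn*, *Acaca*, *Mlxipl*, *Thrsp* and *Me1*). The 4 genes higher at an unadjusted p under 0.05 became 2 with GC correction, with or without the replicate block, and 3 to 5 with 1 library left out. The 0 genes lower at that level became 1 with size factors, quantile normalization, array weights or length correction, and 0 to 1 with 1 library left out. Without KO replicate 7, an alternative chosen after seeing the data like the GC correction of the *Scd2* to *Scd1* ratio, 2 genes in place of 0 had all KO below all WT libraries. The 1 called list gene, *Scap*, became 0 with pseudocount 1, no filter, quantile normalization, no variance trend, GC or length correction, genes at 0 left out or the replicate block, and 0 to 1 with 1 library left out; array weights called 23. The 19 list genes higher at an unadjusted p under 0.05 became 4 with GC correction, 3 with the block and GC correction, and 11 to 19 with 1 library left out (12 without WT replicate 7, 11 without KO replicate 7). The 4 lower became 10 with array weights, 7 with length correction, and 2 to 5 with 1 library left out (2 without WT replicate 8). The *Scd2* to *Scd1* ratio kept its sign throughout, at -2.19 to -1.05 with 1 library left out.

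Signs turned, none at an adjusted p under 0.05, for *Mcat* (-0.20 with GC correction), *Mbp* (-0.71 with array weights, -0.050 with GC correction, -0.41 to 0.80 with 1 library left out) and *Pmp22* (-0.46 to 0.31 with 1 library left out), with the same GC values under the block. *Scd2* ran from -0.48 to 0.073 and *Elovl6*, as a single value, from -0.48 to 0.25 with 1 library left out, and *Elovl6* was at 0.0063 with pseudocount 1. The cause was not tested, other than that fewer libraries enter when 1 is left out.

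The replicate numbers are not stated to mark a shared litter or day. Deviations of same-numbered libraries correlated at -0.03, -0.08 and 0.03, and those of differently numbered libraries at -0.066 to 0.086. With 3 libraries per group these values cannot tell whether the numbers pair the samples, and the main fit did not pair them. With the replicate block 0 lipogenesis genes were called, and 13 genes in place of 40 were called in all (6 higher, 7 lower). The *Scd2* to *Scd1* ratio had an exact sign-flip p of 0.25, the lowest that 3 pairs can give. Calls over all genes ran from 1 to 126 in the other alternatives. *Elovl6* and *Kcnab2* rest on few fragments, and 3 libraries per group limit all.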
